A study of Mus musculus with 11 samples.

Results

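Interferon-stimulated genes are the genes that a cell switches on when an interferon, a secreted alarm signal, reaches its receptors. A list of 40 such mouse genes was matched by symbol to a table of 22377 genes, and the 38 genes with a mean of at least 0.5 CPM over the 11 libraries are described. CPM are the CAGE tags of a gene scaled to the total of its library. Oasl1, with a mean of 0.315 CPM, and Mx1, with 0.436 CPM, fell below that limit, and Ifi44, with 0.501 CPM, lay just above it. The genes were taken by name and by this level, but the list was drawn up with earlier results of these data known and is not independent of them.

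CAGE (cap analysis of gene expression) counts 1 tag per captured 5′ end, so a CPM value counts transcript starts and does not grow with the length of the transcript. The libraries come from cerebral cortex of male C57BL/6N mice, in which photothrombosis had made a small stroke: rose bengal, a dye that light activates, was given, and the left parietal region was lit so that its vessels clotted. The anti-seizure drug levetiracetam (LEV) was given in the drinking water, and the series was designed around seizures after such a stroke. The infarcted side was sampled in 5 states: 7 d with LEV, 7 d without LEV, 1 m with LEV, 1 m without LEV, and 2 m with 2 weeks of LEV withdrawal, each counted from the stroke. The opposite, non-infarcted side was sampled in the same 5 states, and 1 library came from naive cortex. The label of the 7 d LEV libraries does not say when LEV was begun, and the design text starts it 1 month after the stroke. Ages of 8–10 and 65–85 weeks are not tied to libraries. Each of the 11 groups is 1 library, of 12928291 to 21000367 tags. How many mice stand behind a library, and whether both sides of a state come from the same mice, is not stated, so each p-value describes these libraries only.

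Type I interferons bind a receptor made of Ifnar1 and Ifnar2, whose kinases bring about a complex with Stat2 and Irf9 that binds the interferon-stimulated response element. Interferon gamma acts through Ifngr1 and Ifngr2, and its signal reaches genes through the gamma-activated site. In the mouse brain microglia, astrocytes, vessel cells and invading leukocytes can all respond, and microglia with high levels of interferon-stimulated genes are known after injury and in ageing.

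The DNA around the start of these genes carries a core of the response element more often than that of other genes. RefSeq promoter windows (GRCm38.p6, 250 bases before to 50 after the start of a gene) matched 30 of the 38 genes. The core GAAA, 2 bases of any kind and GAAA, searched on both strands, was found in 18 of the 30 (60%), against 3.93% of 26995 other genes and 3.44% of all 32851 windows. TTCNNNGAA, a core of the gamma-activated site that reads alike on both strands, was found in 8 of the 30 (26.7%), against 9.54% of other genes. A match is a description of the letters only, and binding was not measured. Each stretch below lies in front of a member named in the results and holds such a core, so the stretches do not stand for all members. Irf7, Irf9, Oasl2 and Ifitm1, called higher by side below, hold neither core in their windows. Capitals mark the core of the response element, which reads TTTC, 2 bases and TTTC where it lies on the strand not printed. In Irf1 they mark TTCNNNGAA. Each stretch is printed 5′ to 3′ on the strand of its gene and ends before the start that RefSeq gives the gene. GENCODE M21 starts Irgm1 farther upstream, so that the Irgm1 stretch lies inside the gene in that annotation.
Isg15 (chr4:156200837-156200936, minus strand): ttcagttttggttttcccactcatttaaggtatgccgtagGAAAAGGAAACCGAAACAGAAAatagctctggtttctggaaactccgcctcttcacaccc
Ifit1 (chr19:34640749-34640848, plus strand): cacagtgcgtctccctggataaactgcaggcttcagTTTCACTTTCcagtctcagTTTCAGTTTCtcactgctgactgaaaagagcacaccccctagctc
Ifit3 (chr19:34583344-34583443, plus strand): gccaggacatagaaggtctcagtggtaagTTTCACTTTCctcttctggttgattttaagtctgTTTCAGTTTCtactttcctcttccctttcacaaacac
Ifit3b (chr19:34607740-34607839, plus strand): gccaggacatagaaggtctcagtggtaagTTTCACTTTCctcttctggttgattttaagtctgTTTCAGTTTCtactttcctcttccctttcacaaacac
Bst2 (chr8:71537546-71537645, minus strand): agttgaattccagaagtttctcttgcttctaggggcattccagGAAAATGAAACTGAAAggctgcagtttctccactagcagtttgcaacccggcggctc
Irgm1 (chr11:48871421-48871520, minus strand): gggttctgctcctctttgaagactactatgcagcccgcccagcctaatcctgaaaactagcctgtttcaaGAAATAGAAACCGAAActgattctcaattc
Irf1 (chr11:53769878-53769977, plus strand): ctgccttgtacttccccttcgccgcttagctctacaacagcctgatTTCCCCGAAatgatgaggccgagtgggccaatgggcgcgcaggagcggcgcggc

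The Isg15 stretch holds 3 overlapping cores in a row, Bst2 and Irgm1 hold 2 overlapping ones, and Ifit1, Ifit3 and Ifit3b hold 2 that do not touch. The printed stretches of Ifit3 and Ifit3b, neighbours on chromosome 19, are identical at 100 of 100 bases. Their transcripts share 40.8% of the 25-base words in the first 100 bases of Ifit3 and 67.1% of those of Ifit3b. Tags of those 2 genes may therefore be split between them by the mapping, and their values are read together.

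The genes stood higher on the infarcted side, most of all at 7 d. The sum of the 38 genes on the infarcted side was 967 and 784 CPM at 7 d with and without LEV, 305 and 370.2 CPM at 1 m with and without LEV and 340.1 CPM at 2 m. The sum on the non-infarcted side was 248 and 283 CPM at 7 d with and without LEV, 229 and 226 CPM at 1 m with and without LEV and 253 CPM at 2 m, and in naive cortex it was 214 CPM. So the sum was above that of the opposite side in 5 of 5 states, but less than 2-fold above it in the 3 later ones. In whole cortex, more cells of a type and more RNA per cell cannot be told apart.

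**Figure D1:**
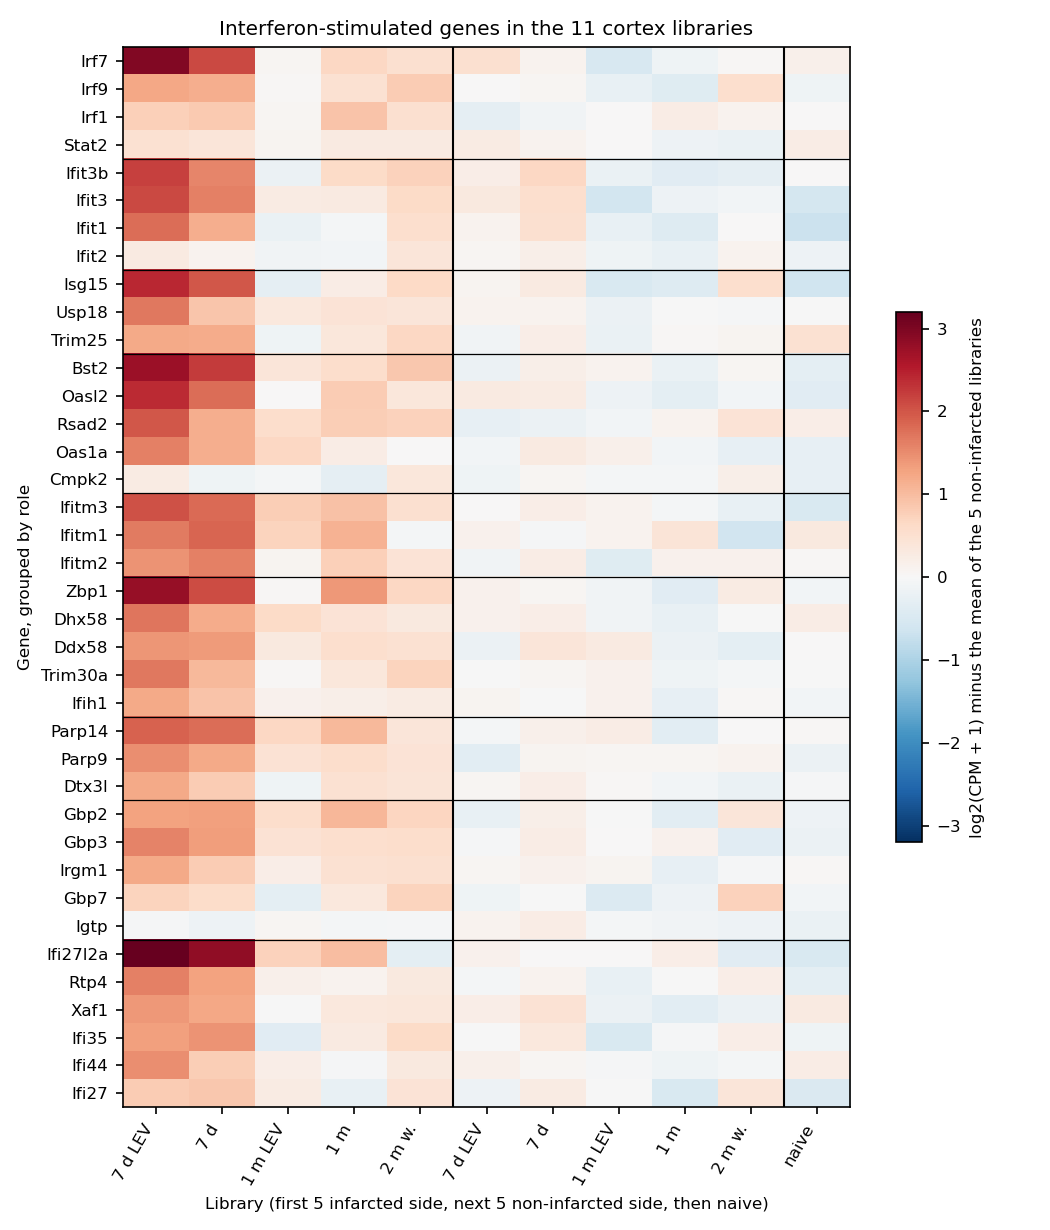
Log2(CPM + 1) of the 38 interferon-stimulated genes (vertical axis, grouped by role) in the 11 libraries (horizontal axis; 2 m w. is 2 m after LEV withdrawal), minus the mean of the 5 non-infarcted libraries; red is higher and blue lower. The 2 infarcted libraries of 7 d are reddest, and for 28 of the 38 genes the highest value is in the infarcted library of 7 d with LEV.

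Across the 5 states taken as repeats of 1 contrast (limma on log2(CPM + 1), 4 residual degrees of freedom), 21 of 38 genes were called higher on the infarcted side at an adjusted p under 0.05 and 0 were called lower. Of all 17556 genes tested, 6.15% were called higher and 0.729% lower. The median log2 difference of the 38 genes was 0.76, against 0.02 for all genes tested. Oas1a, Ifi44, Dhx58, Trim30a and Zbp1 average under 0.5 CPM in the 6 libraries that are not infarcted, so they were tested through the side where they are high. Without those 5 genes 19 of 33 were called. The infarcted value was above the non-infarcted one in all 5 states for 31 genes, in 4 states for 5, in 3 for 1 and in 2 for 1. These states were counted for the 38 genes only, so no share of all genes stands beside them. For 10 genes, Bst2, Ifitm3, Usp18, Rsad2, Dhx58, Parp9, Parp14, Gbp2, Gbp3 and Irgm1, every infarcted library lay above every non-infarcted library and above naive. Over all genes this holds for 3.28% without naive and 2.93% with it. Dhx58, among these 10 genes, was tested through the side where it is high. The number of genes called by limma rests on few libraries, on the pairing of sides by state and on the expression limit. It was 2 with no state factor and 9 with no expression limit. It was also 2 without the libraries of 7 d with LEV, 0 without those of 7 d, 27 without those of 1 m with LEV, 0 without those of 1 m and 21 without those of 2 m.

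Among the 4 regulators, 3 were called higher. Irf7, the transcription factor that amplifies the type I interferon loop, was at 39.8 and 21.6 CPM in the infarcted libraries of 7 d with and without LEV, 4.48 and 7.25 CPM at 1 m with and without LEV and 6.50 CPM at 2 m. On the non-infarcted side it was at 6.49 and 4.61 CPM at 7 d with and without LEV, 2.67 and 3.70 CPM at 1 m with and without LEV and 4.31 CPM at 2 m, with 4.87 CPM in naive cortex. Within each state the infarcted library was the higher, but the infarcted value of 1 m with LEV lay below naive and inside the range of the non-infarcted libraries. The log2 side difference of Irf7 was 1.27 (standard error 0.28, adjusted p = 0.0297). That of Irf9, the DNA-binding subunit of the complex with Stat2, was 0.75 (standard error 0.16, adjusted p = 0.0303), and that of Irf1, a factor induced through the gamma-activated site, was 0.62 (standard error 0.15, adjusted p = 0.0387). Stat2, which carries the activating domain of that complex, was at 16.1 to 21.8 CPM on the infarcted side and 12.9 to 18.4 CPM on the other, with 18.0 CPM in naive cortex, and was not called (0.30, adjusted p = 0.0657).

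The IFIT family, whose proteins bind foreign RNA ends and hold back its translation, had 2 of its 4 genes called. Ifit3 was at 19.6 and 13.6 CPM in the infarcted libraries of 7 d with and without LEV, 4.69 and 4.81 CPM at 1 m with and without LEV and 6.33 CPM at 2 m. The non-infarcted side had 4.89 and 5.95 CPM of Ifit3 at 7 d with and without LEV, 2.19 and 3.27 CPM at 1 m with and without LEV and 3.46 CPM at 2 m, and naive cortex had 2.24 CPM. The sides overlap, since both infarcted libraries of 1 m lie within the range of the non-infarcted ones. Its log2 side difference was 0.97 (standard error 0.18, adjusted p = 0.0167) and that of Ifit3b, which shares the sequence above, was 0.98 (standard error 0.22, adjusted p = 0.0342). Ifit1 gave 0.65 (adjusted p = 0.0954), with 1.93 to 10.6 CPM on the infarcted and 1.53 to 3.84 CPM on the non-infarcted side. Ifit2 moved least of the family, at 7.65 to 11.3 CPM against 7.04 to 9.67 CPM on the non-infarcted side (0.11, adjusted p = 0.505).

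Isg15, a ubiquitin-like protein that is joined to other proteins, was at 55.8 and 41.3 CPM in the infarcted libraries of 7 d with and without LEV, 7.76 and 11.6 CPM at 1 m with and without LEV and 15.7 CPM at 2 m. On the non-infarcted side it was at 10.4 and 12.01 CPM at 7 d with and without LEV, 6.67 and 7.04 CPM at 1 m with and without LEV and 14.7 CPM at 2 m, and in naive cortex at 5.88 CPM. The 7 d infarcted libraries stand far above the rest, the later ones do not, and the side difference of 0.99 was not called (standard error 0.30, adjusted p = 0.083). Usp18, the protease that removes Isg15 and damps the receptor, was called at 0.74 (standard error 0.18, adjusted p = 0.0377), with every infarcted library, at 1.46 to 5.33 CPM, above every non-infarcted one, at 0.714 to 1.12 CPM. Trim25, a ubiquitin ligase that acts on the RNA sensor Ddx58, was just outside the threshold at 0.66 (adjusted p = 0.0507).

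Of the 5 antiviral enzymes and membrane effectors, 3 were called. Bst2, tetherin, which holds budding virus at the cell surface, was at 45.7 and 31.8 CPM in the infarcted libraries of 7 d with and without LEV, 8.07 and 9.34 CPM at 1 m with and without LEV and 11.7 CPM at 2 m, against 5.01 to 6.95 CPM on the non-infarcted side and 4.64 CPM in naive cortex. The sides did not overlap, and the log2 difference was 1.36 (standard error 0.33, adjusted p = 0.0419). Rsad2, viperin, an enzyme that makes a chain-terminating nucleotide, was called at 1.05 (standard error 0.25, adjusted p = 0.038), and Oasl2, of the oligoadenylate synthetase family, at 1.08 (standard error 0.25, adjusted p = 0.0347). Cmpk2, the nucleotide kinase that lies next to Rsad2, was at 10.6 to 16.98 CPM on the infarcted side and 11.9 to 15.1 CPM on the other, and was not called (0.03, adjusted p = 0.915). Oas1a, at 0.285 to 2.96 CPM on the infarcted and 0.0607 to 0.556 CPM on the non-infarcted side, gave 0.74 (adjusted p = 0.0642). Its first bases share 84.2% of their 25-base words with Oas1g, so its tags may in part be those of Oas1g.

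All 3 genes of the IFITM family, small membrane proteins that block the fusion of viruses with the cell, were called. Ifitm3 was at 139.8 and 121 CPM in the infarcted libraries of 7 d with and without LEV, 58.3 and 65.6 CPM at 1 m with and without LEV and 48.0 CPM at 2 m. The non-infarcted side had 33.7 and 38.8 CPM at 7 d with and without LEV, 36.2 and 32.0 CPM at 1 m with and without LEV and 28.2 CPM at 2 m, and naive cortex had 23.8 CPM. Every infarcted library lay above every non-infarcted one in each state, and at 1.21 (standard error 0.18, adjusted p = 0.0105) Ifitm3 had the smallest p of the 38 genes. Ifitm1 gave 1.06 (standard error 0.20, adjusted p = 0.0203) and Ifitm2 0.86 (standard error 0.18, adjusted p = 0.0243). The tags of Ifitm2 are also those of the overlapping gene Gm45717, with 6860 tags for each.

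Of the 5 genes of nucleic acid sensing, 3 were called. Of those, Zbp1 and Dhx58 average 0.483 and 0.487 CPM in the 6 libraries that are not infarcted, so they were tested through the side where they are high. Zbp1, a sensor of left-handed nucleic acid that can start cell death, was at 9.27 and 5.30 CPM in the infarcted libraries of 7 d with and without LEV, 0.521 and 2.87 CPM at 1 m with and without LEV and 1.37 CPM at 2 m. It was at 0.145 to 0.789 CPM on the non-infarcted side and 0.387 CPM in naive cortex, so that only the infarcted library of 1 m with LEV lay inside that range. Its log2 side difference was 1.39 (standard error 0.33, adjusted p = 0.0399). The RNA sensor Ddx58 (RIG-I) was called at 0.83 (standard error 0.19, adjusted p = 0.036) and its relative Dhx58 (LGP2) at 0.86 (standard error 0.17, adjusted p = 0.023), whereas the third RNA sensor, Ifih1 (MDA5), was not, at 0.54 (adjusted p = 0.0893). Trim30a gave 0.77 (adjusted p = 0.0726) from 0.208 to 2.78 CPM on the infarcted and 0.0726 to 0.286 CPM on the non-infarcted side.

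Parp14 and Parp9, of the family that attaches ADP-ribose to proteins, were called at 1.16 (standard error 0.23, adjusted p = 0.0218) and 0.83 (standard error 0.21, adjusted p = 0.0459). Dtx3l, the ubiquitin ligase that binds Parp9 and is transcribed head to head with it, was not called at 0.55 (adjusted p = 0.0791). Among the interferon-inducible GTPases, which coat the membranes that enclose intracellular microbes, 3 of 5 were called: Gbp2 at 0.98 (standard error 0.18, adjusted p = 0.0182), Gbp3 at 0.90 (standard error 0.18, adjusted p = 0.0223) and Irgm1 at 0.65 (standard error 0.14, adjusted p = 0.026). Gbp2 was at 2.45 to 4.88 CPM on the infarcted side and 0.872 to 2.06 CPM on the non-infarcted side, with 1.08 CPM in naive cortex. Gbp7 was not called at 0.41 (adjusted p = 0.119), and Igtp was the only gene with a negative value, −0.05 (adjusted p = 0.859), at 0.603 to 0.885 CPM on the infarcted and 0.607 to 1.11 CPM on the non-infarcted side. The tags of Igtp, 142 in all, are also those of Irgm2.

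Of the 6 remaining genes only Xaf1, a protein that favours cell death, was called (0.66, standard error 0.13, adjusted p = 0.0242). Ifi27l2a, a small interferon-induced membrane protein, had the largest difference of all 38 genes, 1.52, without being called (standard error 0.42, adjusted p = 0.0625). It was at 229.9 and 166 CPM in the infarcted libraries of 7 d with and without LEV, 37.95 and 44.9 CPM at 1 m with and without LEV and 17.8 CPM at 2 m, against 16.9 to 26.1 CPM on the non-infarcted side and 15.6 CPM in naive cortex. The infarcted library of 2 m lay within the range of the other side, and the difference is carried by the 7 d libraries. Ifi27, Ifi35, Ifi44 and Rtp4 gave 0.43 to 0.70 with adjusted p of 0.0588 to 0.101.

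**Figure D2:**
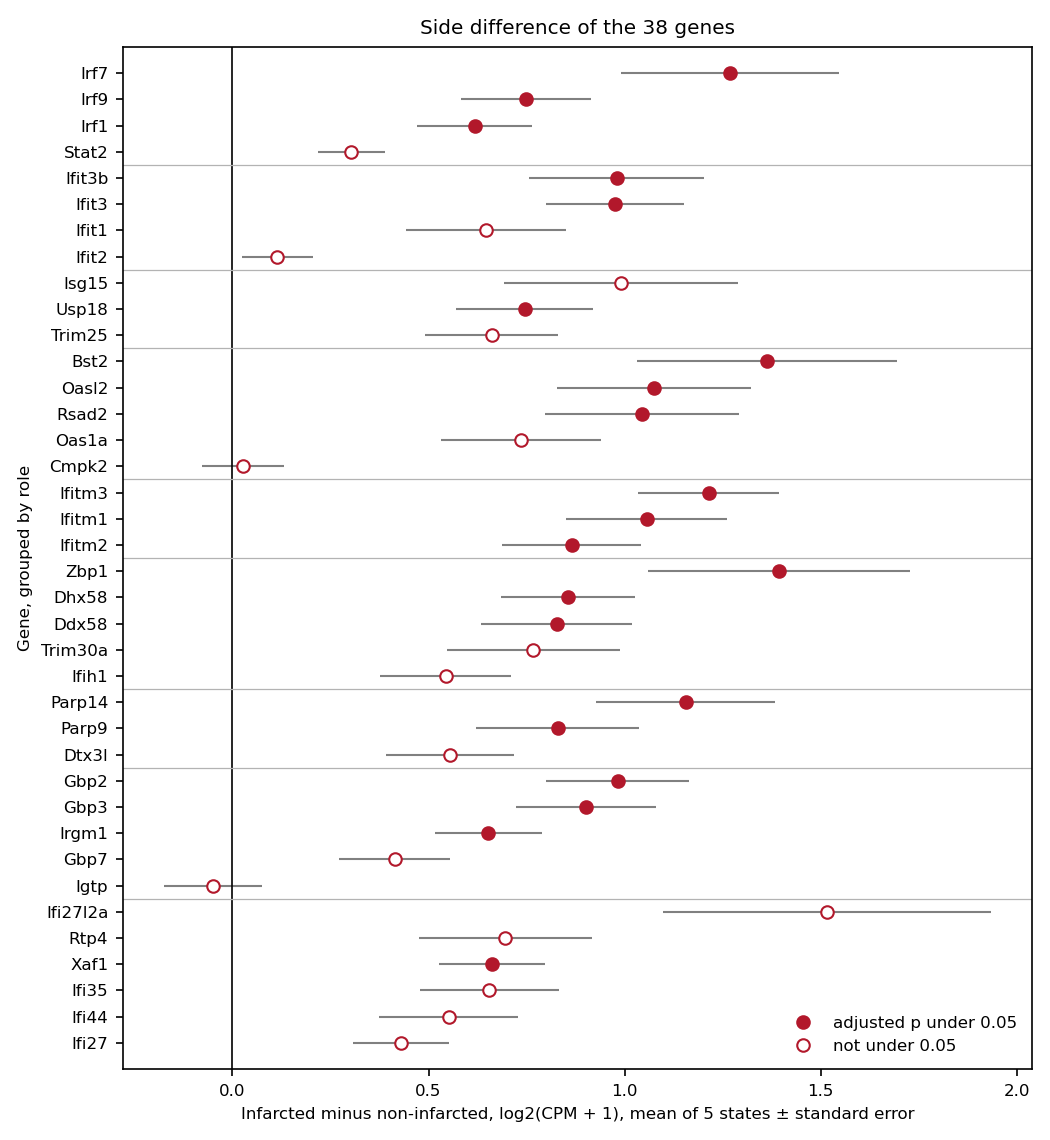
Log2 side difference (infarcted minus non-infarcted, log2(CPM + 1), mean of 5 states, horizontal axis) with its standard error for the 38 genes (vertical axis, grouped by role); filled points have an adjusted p under 0.05. The 21 filled points lie between 0.62 and 1.39, and Ifi27l2a, at 1.52 with a standard error of 0.42, is the highest point and is open.

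State by state, with 1 library a side and no test, the infarcted side was at least 2-fold higher for 33 of 38 genes at 7 d with LEV (8.29% of all genes), 28 at 7 d without LEV (7.71%), 6 at 1 m with LEV (2.27%), 12 at 1 m without LEV (4.76%) and 5 at 2 m (5.29%). At a ratio of 0.5 or less, 0 genes were found in any state, against 0.797% and 1.13% of all genes at 7 d with and without LEV, 0.376% and 1.13% at 1 m with and without LEV and 1.32% at 2 m. Their median log2 difference was 1.58 and 0.98 at 7 d with and without LEV, 0.22 and 0.61 at 1 m with and without LEV and 0.40 at 2 m. At 2 m the genes past 2-fold, 5 of 38, were the fewest of the 5 states, though 37 of 38 were above the other side. For 19 the exact 95% counting interval of the ratio lay above 1. These intervals cover counting error only. Neither the 37 nor the 19 was counted over all genes, whose median log2 difference at 2 m was 0.06. Ifi44 and Trim30a, among the 5 genes past 2-fold at 2 m, rest on 2 non-infarcted tags each, under the 3 tags used as the floor of a ratio. The 5 genes at 2 m included Ifit3b, at 5.36 CPM against 2.12 CPM (ratio 2.52, interval 1.69 to 3.83), Gbp3, at 3.93 CPM against 1.58 CPM (ratio 2.49, interval 1.57 to 4.08), and Ddx58, at 3.65 CPM against 1.64 CPM (ratio 2.23, interval 1.40 to 3.63) on the infarcted against the non-infarcted side. Ifit3, which is read together with Ifit3b, stayed under 2-fold at 2 m (ratio 1.83, interval 1.32 to 2.56).

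On the infarcted side the genes fell between 7 d and 1 m. Over the 4 libraries of 1 m and 7 d with LEV as the second factor, 32 of 38 genes were called lower at 1 m and 0 higher (limma, adjusted p under 0.05). Of all genes, 10.4% were called lower and 4.7% higher. The median log2 difference was −0.97, against −0.03 for all genes. With no expression limit 0 of the 38 genes, and 0 of all genes, were called. Oas1a, Ifi44 and Trim30a average under 0.5 CPM in the 9 libraries other than the infarcted ones of 7 d, and without those 3 genes 29 of 35 were called. The test has 1 residual degree of freedom and takes most of its spread from other genes (35.2 prior degrees of freedom). Without the 7 d library treated with LEV, in a fit without the second factor, 18 genes were called lower. The largest falls were those of Isg15 (−2.22, standard error 0.18, adjusted p = 1.24e-11), Ifi27l2a (−2.21, standard error 0.15, adjusted p = 5.46e-14), Irf7 (−2.18, standard error 0.22, adjusted p = 1.23e-09) and Bst2 (−2.02, standard error 0.18, adjusted p = 9.00e-11). Leaving aside Ifi44 and Trim30a, the 5 other genes of the mixed group, the 4 other sensors and all 3 IFITM genes fell, and so did 3 of 4 IFIT genes, at −1.59 to −1.68.

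The 6 genes that were not called over time differed from one another. Irf1 was at 8.34 and 8.92 CPM in the infarcted libraries of 7 d with and without LEV, 4.84 and 9.41 CPM at 1 m with and without LEV and 6.95 CPM at 2 m. Its highest library was thus the untreated one of 1 m. On the non-infarcted side Irf1 was at 3.56 to 5.59 CPM and in naive cortex at 4.56 CPM. Its time value was −0.30 (standard error 0.21, adjusted p = 0.378). Gbp2, which like Irf1 responds to interferon gamma, was at 4.75 and 4.88 CPM in the infarcted libraries of 7 d with and without LEV and 2.45 and 3.88 CPM at 1 m with and without LEV (−0.50, adjusted p = 0.122). The other 4 were Stat2 (−0.25), Ifit2 (−0.30), Cmpk2 (−0.23) and Igtp (0.10), which also differed least between the sides. Of the interferon-inducible GTPases, Gbp3 (−0.98), Irgm1 (−0.66) and Gbp7 (−0.64) were called lower at 1 m.

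**Figure D3:**
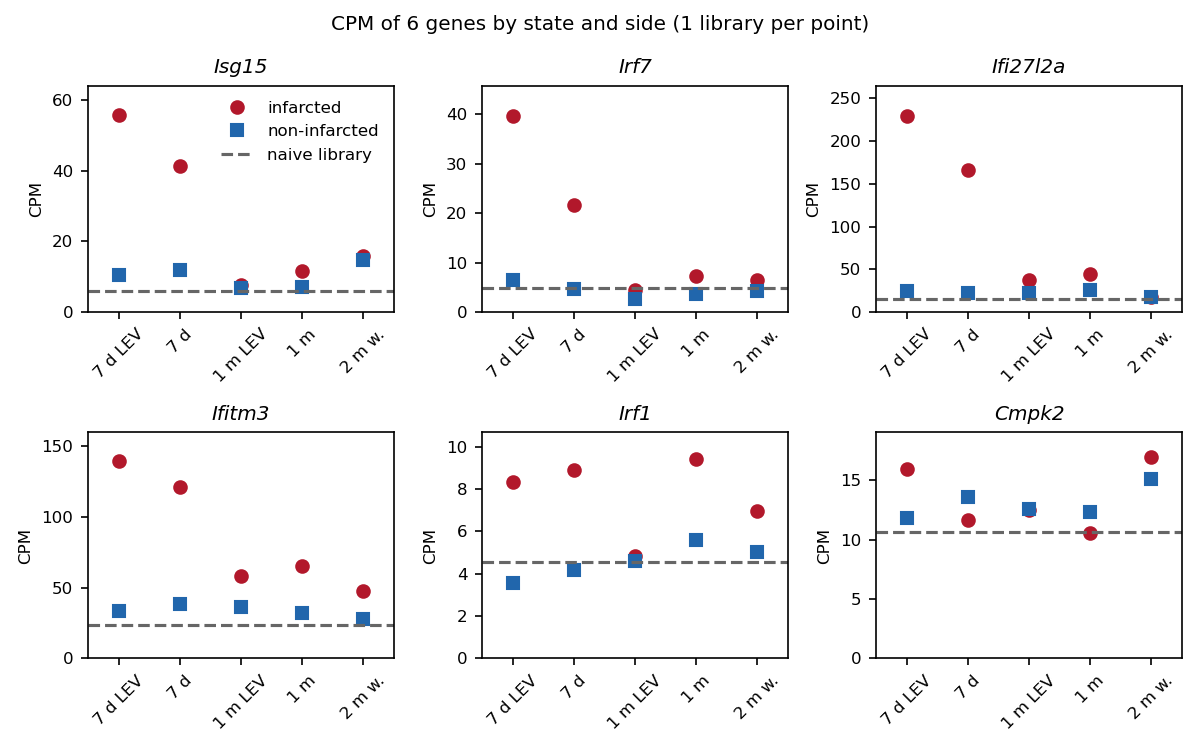
CPM (vertical axes) of 6 genes in each state (horizontal axes), 1 library a point, red circles for the infarcted side, blue squares for the non-infarcted side and a dashed line for naive cortex. Isg15, Irf7, Ifi27l2a and Ifitm3 are highest in the 7 d infarcted libraries, Irf1 is as high at 1 m without LEV, at 9.41 CPM, as at 7 d, and Cmpk2 shows no such separation, at 10.6 to 16.98 CPM infarcted and 11.9 to 15.1 CPM non-infarcted.

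On the opposite side 33 of 38 genes were lower at 1 m than at 7 d and 5 higher. The median log2 difference was −0.18, against −0.06 for all genes. On that side an unadjusted limma p under 0.05 was reached by 8 of the 38 genes, and by 25.8% of all genes. There 3 of 38 genes were called lower at 1 m and 0 higher, close to the share of all genes called lower, 5.09% (5.13% higher). They were Ifit3 (−0.79, standard error 0.19, adjusted p = 0.0192), Ifit3b (−0.74, standard error 0.21, adjusted p = 0.0379) and Isg15 (−0.63, standard error 0.17, adjusted p = 0.0353), and with TMM scaling factors 0 genes were called. Without the 7 d non-infarcted library, in a fit without the second factor, 0 were called, and 5 without that of 1 m or that of 1 m with LEV. Tested as such, the time effect on the side difference was lower for 16 of 38 genes and higher for 0, where 3.92% of all genes were lower and 0.125% higher. It reached −2.27 in Ifi27l2a (standard error 0.15, adjusted p = 1.09e-09), −1.96 in Bst2 (standard error 0.26, adjusted p = 2.62e-05), −1.59 in Isg15 (standard error 0.23, adjusted p = 8.32e-05) and −1.53 in Irf7 (standard error 0.24, adjusted p = 0.000245). The 2 IFIT genes with printed sequences that fell on both sides were not called here, Ifit3 at −0.80 (adjusted p = 0.076) and Ifit3b at −0.94 (adjusted p = 0.141). Trim30a, which was tested only through its 7 d infarcted values, is 1 of the 16. The count was 1 with no expression limit, 9 with median centring or TMM factors and 7 in edgeR on the recovered tags, and it was 7 without the 7 d state, 3 without 7 d with LEV and 8 without 1 m with LEV.

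Against the 1 naive library, 0 of 38 genes were called on either side in limma and also in edgeR. On the infarcted side 0% of all genes were called higher and 0.0057% lower. There all 38 genes were positive with a median of 0.84 (0.03 for all genes). An unadjusted limma p under 0.05 was reached by 6 of them, and by 4.07% of all genes. The non-infarcted side, where 0% of all genes were called in each direction, gave 24 positive and 14 negative values. Their median was 0.09 (0.004 for all genes), from 0.69 in Ifit1 to −0.50 in Trim25. On this side 1 gene, Ifitm3, had an unadjusted limma p under 0.05, against 1.21% of all genes. Isg15 was nonetheless higher in each of the 5 non-infarcted libraries, at 6.67 to 14.7 CPM, than in naive cortex, at 5.88 CPM. In the naive library 6 choroid plexus markers summed to 361 CPM, against 203 CPM in the non-infarcted library of 1 m with LEV. In all other libraries that sum was 14.1 to 31.3 CPM, and its bearing on the comparison with naive was not tested.

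LEV was compared within each time and side. With time as the second factor, 0 of 38 genes were called on the infarcted side (0.0627% of all genes higher, 0.268% lower), 0 on the non-infarcted side (0% each) and 0 for the side difference (0.0114% higher, 0.0057% lower), in limma and in edgeR. An unadjusted limma p under 0.05 was reached by 4, 2 and 1 of the 38 genes, and by 8.1%, 4.9% and 3.1% of all genes. For the side difference, in fits without the second factor, leaving out 1 m with LEV gave 2 genes higher and leaving out 7 d with LEV gave 2 lower. The single libraries ran in opposite directions at the 2 times. At 7 d on the infarcted side 32 of 38 genes were higher with LEV, with a median log2 difference of 0.31 (0.06 for all genes) and 19 counting intervals above 1 and 1 below. At 1 m on that side 31 of 38 were lower with LEV, with a median of −0.24 (−0.03 for all genes) and 18 intervals below 1 and 1 above. Genes higher or lower and intervals were counted for the 38 genes only, so these counts have no share of all genes beside them. With 1 library a group, an effect of LEV and a difference between libraries cannot be told apart.

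At least 2-fold differences with LEV were few. At 7 d on the infarcted side 3 genes were at least 2-fold higher (1.16% of all genes) and 0 at a ratio of 0.5 or less (0.968%). They were Usp18 at 5.33 CPM with LEV against 2.59 CPM without (ratio 2.06, interval 1.42 to 3.03), Trim30a at 2.78 CPM with LEV against 1.39 CPM without (ratio 2.01, interval 1.197 to 3.46) and Ifi44 at 2.26 CPM with LEV against 1.02 CPM without (ratio 2.21, interval 1.22 to 4.16). Irf7 came near it, at 39.8 CPM with LEV against 21.6 CPM without (ratio 1.84, interval 1.61 to 2.09). At 1 m on that side 3 genes were at a ratio of 0.5 or less (3.22% of all genes) and 1, Oas1a, was above 2 (1.45%; ratio 2.07, interval 0.841 to 5.80). The 3 were Zbp1 at 0.521 CPM with LEV against 2.87 CPM without (ratio 0.181, interval 0.0808 to 0.369), Ifit3b at 2.34 CPM against 4.81 CPM (ratio 0.487, interval 0.326 to 0.721) and Trim30a at 0.208 CPM against 0.503 CPM, whose interval spans 1. Oasl2 and Irf1 lay just above that limit, at ratios of 0.501 (interval 0.352 to 0.708) and 0.515 (interval 0.390 to 0.676). Ifit3, which shares its sequence with Ifit3b, had a ratio of 0.974, so the low value of Ifit3b alone is uncertain. The non-infarcted side showed smaller medians. At 7 d the median was −0.17 (−0.01 for all genes), with 29 of 38 genes lower with LEV. At 1 m it was 0.11 (0.02 for all genes), with 24 of 38 higher. There 0 genes at 7 d were at least 2-fold higher with LEV (0.877% of all genes) and 1, Oas1a, was at 0.5 or less (1.5%; ratio 0.382, interval 0.0876 to 1.33), and at 1 m 0 passed either limit (1.62% and 1.81%).

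**Figure D4:**
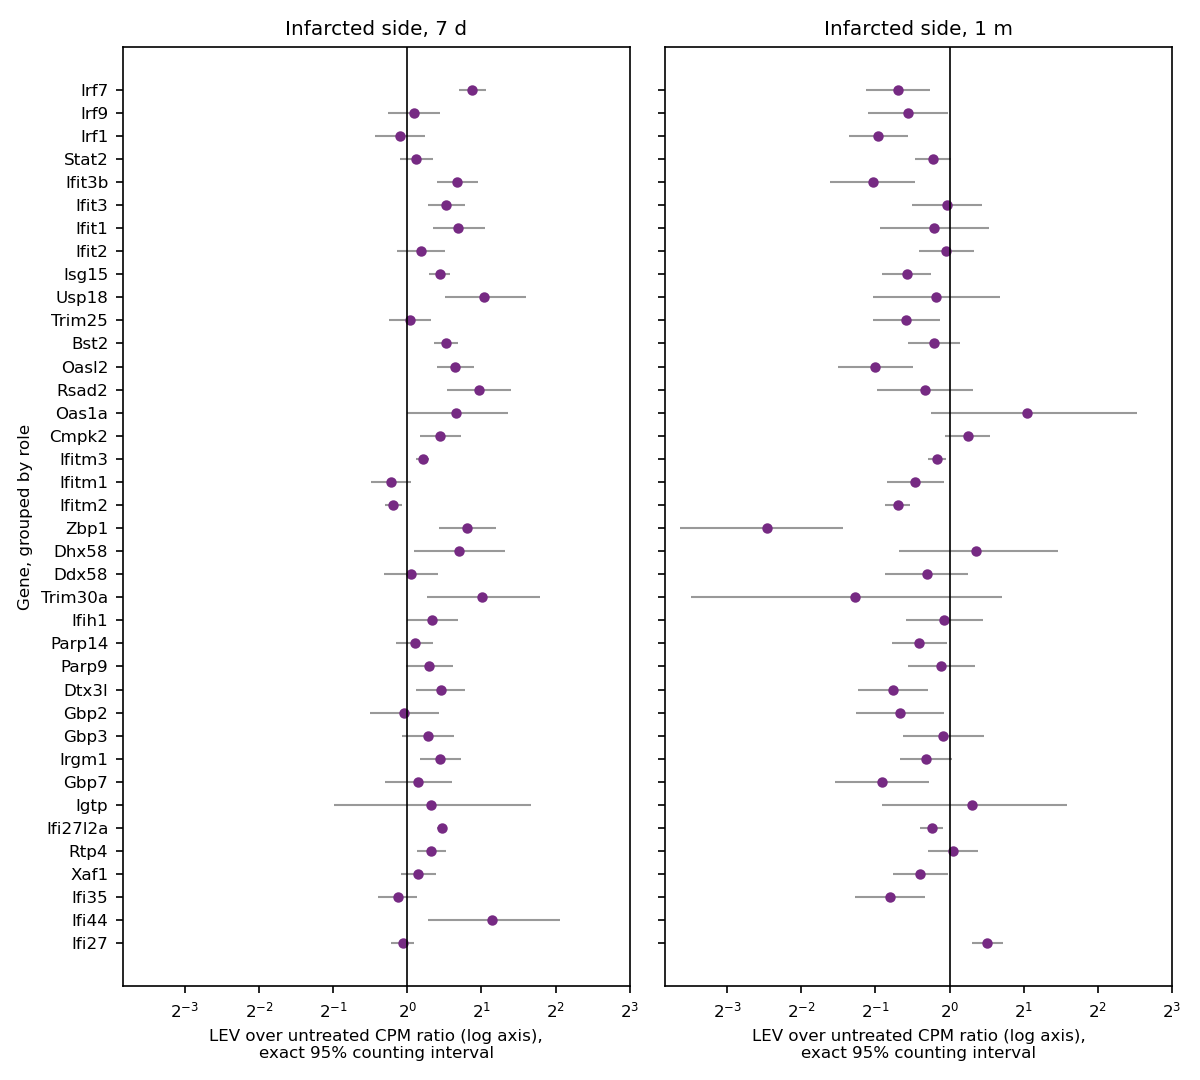
Ratio of CPM with LEV over CPM without LEV (horizontal axes, log scale) with exact 95% counting intervals for the genes (vertical axis, grouped by role) on the infarcted side at 7 d (left) and 1 m (right); Ifi44 at 1 m is not drawn because its untreated library holds under 3 tags. At 7 d 32 of 38 points lie right of 1, and at 1 m 31 of the points drawn lie left of it, with Zbp1 farthest left at 0.181.

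The only libraries of 2 m are those after LEV withdrawal, so withdrawal and the later time cannot be told apart. At 2 m, set against 1 m with LEV on the infarcted side, 30 of 38 genes were higher, 7 of them at least 2-fold (4.21% of all genes). At a ratio of 0.5 or less there were 2 (2.38%). The median log2 difference was 0.32, against 0.11 for all genes. Isg15 stood at 15.7 CPM at 2 m, against 7.76 CPM at 1 m with LEV (ratio 2.03, interval 1.66 to 2.49) and Gbp7 at 5.24 CPM, against 2.03 CPM (ratio 2.58, interval 1.76 to 3.86). The same 2 genes were also higher on the non-infarcted side, with Isg15 at 14.7 CPM at 2 m, against 6.67 CPM at 1 m with LEV (ratio 2.20, interval 1.78 to 2.73) and Gbp7 at 5.28 CPM, against 1.81 CPM (ratio 2.92, interval 1.97 to 4.39). Ifi27l2a went the other way on the infarcted side, at 17.8 CPM at 2 m, against 37.95 CPM at 1 m with LEV (ratio 0.469, interval 0.409 to 0.536). On the non-infarcted side 4 of 38 genes were at least 2-fold higher (4.29% of all genes) and 2 at 0.5 or less (4.19%).

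The wider pathway moved in part with the members. Of the receptors, 3 of 5 tested were higher on the infarcted side. Ifnar2 was at 39.3 to 62.9 CPM infarcted against 29.3 to 35.8 CPM non-infarcted (0.54, standard error 0.08, adjusted p = 0.011). Ifngr1 was at 24.2 to 41.1 CPM infarcted against 13.4 to 21.7 CPM non-infarcted (0.76, standard error 0.14, adjusted p = 0.0188). Il10rb, a chain shared with the interleukin-10 and lambda interferon receptors, was at 15.3 to 37.9 CPM infarcted against 10.9 to 12.9 CPM non-infarcted (0.95, standard error 0.19, adjusted p = 0.0227). Ifnar1 (0.11) and Ifngr2 (0.15) were not called, and Ifnlr1, the lambda interferon chain, was at 0 to 0.121 CPM infarcted and 0 to 0.190 CPM non-infarcted. The interferons themselves are not analysed here. Among the kinases and factors, Irf8 (1.56) and Irf5 (1.08) were called higher by side, and over time on the infarcted side Irf8 (−1.44, adjusted p = 5.10e-08), Irf5 (−0.89, adjusted p = 0.00137) and Irf2 (−0.58, adjusted p = 0.00643) were lower and the kinase Jak2 was higher (0.45, adjusted p = 0.0378). Of the 6 brakes, Ptpn6 (1.58), a phosphatase of leukocytes and microglia, and Socs3 (0.70) were higher. Of 9 upstream sensors and adaptors 5 were higher, among them the endosomal receptors Tlr7 (1.23) and Tlr9 (0.68) and their chaperone Unc93b1 (1.31). Of 33 further interferon-stimulated genes 18 were higher and 0 lower by side, with Gbp6 (1.37, adjusted p = 0.00894), Lgals3bp (1.49, adjusted p = 0.011), Samd9l (0.85, adjusted p = 0.0114) and Sp100 (0.92, adjusted p = 0.0138) at the smallest p. Of these 33, 20 were lower at 1 m than at 7 d on the infarcted side. Gbp6 resembled Irf1 at 1 m, at 2.97 and 8.04 CPM with and without LEV on the infarcted side, against 8.81 and 8.26 CPM at 7 d with and without LEV.

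Markers of other cells moved with the members, and their part in these differences was not tested. The summed CPM of 10 microglia markers was 590 to 1531 on the infarcted and 358 to 427 on the non-infarcted side, highest at 7 d, with 6 of 10 called higher by side and 7 lower over time. The 9 macrophage and monocyte markers summed to 14.9 to 98.7 CPM infarcted and 8.64 to 16.1 CPM non-infarcted, with 3 of 5 tested called higher. The largest part of the infarcted sums was Ms4a7, at 6.92 to 69.1 CPM infarcted and 1.60 to 3.22 CPM non-infarcted. Cd163 was at 0.646 to 2.67 CPM infarcted and 0.799 to 2.73 CPM non-infarcted. Lyve1 (0.241 to 0.579 CPM infarcted, 0.243 to 0.667 CPM non-infarcted) and Chil3 (0 to 0.422 CPM infarcted, 0 to 1.45 CPM non-infarcted) also overlapped between the sides. Of that list Plac8 was at 9.45 and 6.45 CPM in the infarcted libraries of 7 d with and without LEV (side difference 1.42, called) and F13a1 at 14.0 and 14.5 CPM (0.71, not called). Ccr2 was at 0.156 to 0.456 CPM on the infarcted and 0 to 0.445 CPM on the non-infarcted side, and Ly6c2 at 0.0521 to 0.464 CPM infarcted and 0 to 0.278 CPM non-infarcted. The 7 T and NK cell markers summed to 4.98 and 2.53 CPM in the infarcted libraries of 7 d with and without LEV, 2.39 and 11.6 CPM at 1 m with and without LEV and 6.16 CPM at 2 m, against 1.39 to 1.86 CPM on the non-infarcted side, with 0 of 3 tested called. The infarcted library of 1 m without LEV was thus the highest in T and NK cell markers. Irf1 was also highest there, but its 9.41 CPM was close to the 8.92 CPM of the infarcted library of 7 d without LEV. A link between these markers and Irf1 was not tested. Of 6 meningeal fibroblast markers 4 were higher, with sums of 93.3 to 1082 CPM infarcted and 74.3 to 147 CPM non-infarcted. Of the other lists, 5 of 6 oligodendrocyte, 3 of 7 astrocyte, 2 of 6 pericyte and smooth muscle and 1 of 4 neutrophil markers were higher by side, and 0 of 7 neuron, 0 of 8 endothelial and 0 of 4 choroid plexus markers. The neuron list summed to 5429 to 7204 CPM infarcted and 6084 to 8377 CPM non-infarcted. Within it Slc17a7 was at 1516 CPM infarcted and 1738 CPM non-infarcted at 1 m with LEV, against 481 to 861 CPM in the other libraries. Those libraries of 1 m with LEV enter the LEV and 2 m comparisons, and the bearing of this difference on them was not tested. The neutrophil list was highest in the non-infarcted library of 7 d without LEV, at 157 CPM against 7.89 to 20.1 CPM in the other 4 non-infarcted libraries.

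**Figure D5:**
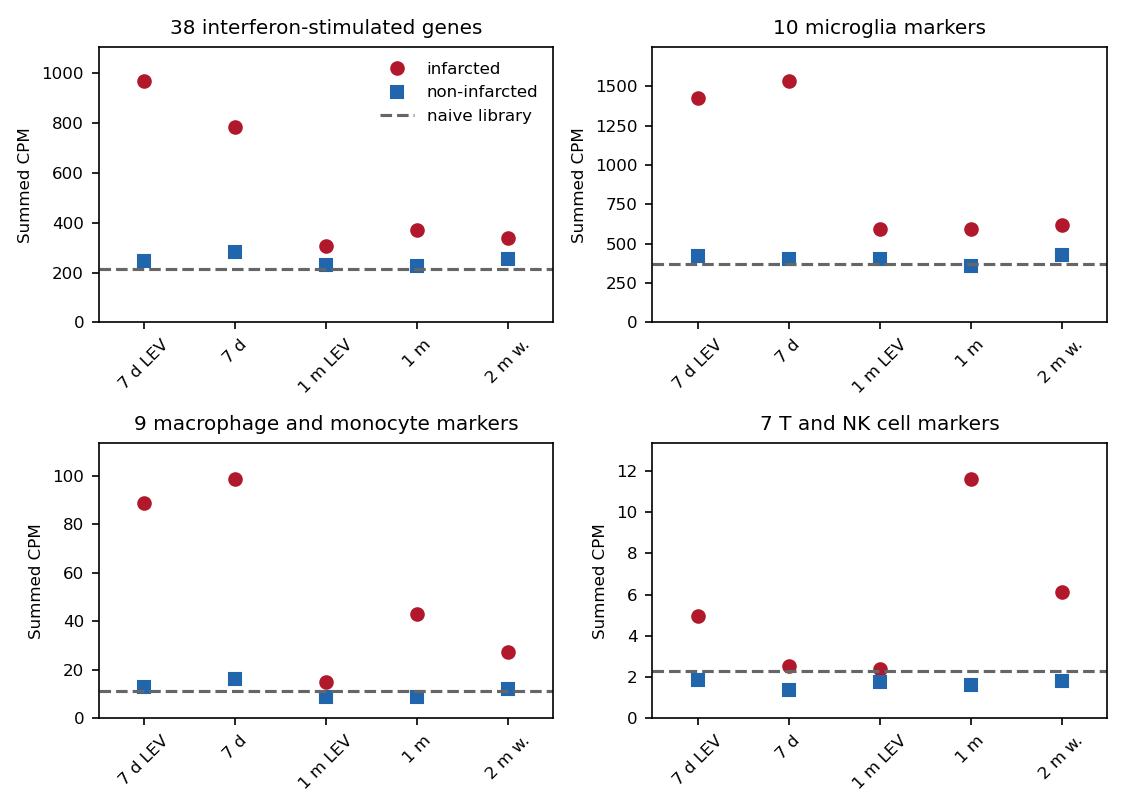
Summed CPM (vertical axes) of the 38 interferon-stimulated genes and of 3 marker lists in each state (horizontal axes), 1 library a point, red circles for the infarcted side, blue squares for the non-infarcted side and a dashed line for naive cortex. The genes and the microglia and macrophage lists are highest at 7 d on the infarcted side, at up to 967, 1531 and 98.7 CPM, while the T and NK cell list is highest at 1 m without LEV, at 11.6 CPM. Ms4a7 makes up the largest part of the macrophage sums on the infarcted side.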

How the data were processed

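The deposited values are CPM of CAGE tags per gene, scaled by the authors to the total of each library, per the file headers and values. The build GRCm38 and the tools HISAT2 2.0.5, BWA 0.7.17 and DESeq2 1.20.0 are listed, with no roles, in the submitters' processing notes. All CPM values were whole tags within 0.01, so tags were recovered, and 3 tags (0.143 to 0.232 CPM) are the floor of a ratio. Groups follow the labels, which give 2 weeks of withdrawal where the design text gives 1.

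Log2(CPM + 1) of 17556 genes with a mean of at least 0.5 CPM was fitted with limma 3.58.1 (mean-variance trend; R 4.3.3) and adjusted by Benjamini-Hochberg over all of them. For side differences the trend used the mean level of the 8 libraries. Single libraries were compared by CPM ratios with exact 95% conditional binomial intervals. Fits were tested on simulated data. Alternatives were a pseudocount of 0.25, other expression limits, median centring, TMM factors, edgeR 4.0.16 on the tags, no second factor, members with shared tags left out, and libraries left out. Any of the 38 genes may be named, and from the other pathway lists at most the 4 smallest p of called genes per list and test, with receptors always given. A gene of the list of kinases and factors is not reported here, and the counts of that list are left out. The members, lists and tests were chosen with earlier results of these data known. The alternatives that leave out a library of the time and LEV tests, or genes below 0.5 CPM outside the group where they are high, were chosen after seeing the data. Promoter stretches come from RefSeq, GRCm38.p6, and gene positions from GENCODE M21.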

Additional observations from a re-analysis of the deposited data

Results flagged for a closer look

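For 16 of the 38 genes the change between 7 d and 1 m differed between the sides by a test of the difference itself (limma on the infarcted minus non-infarcted log2 values, 1 m minus 7 d, adjusted p under 0.05), always lower on the infarcted side. The differences were −2.27 for Ifi27l2a, −1.96 for Bst2, −1.59 for Isg15, −1.53 for Irf7, −1.39 for Zbp1, −1.18 for Rtp4, −1.15 for Oasl2, −1.14 for Trim30a, −1.13 for Rsad2, −1.08 for Ifitm1, −1.01 for Parp9, −0.99 for Ifi35, −0.97 for Ifitm3, −0.96 for Gbp3, −0.94 for Trim25 and −0.92 for Ifitm2. Trim30a averages 0.293 CPM in the 9 libraries other than the infarcted ones of 7 d and was tested only through those. Without the 7 d state treated with LEV, 3 genes were called, and without the other states 7 to 17.

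The LEV values of the infarcted side had opposite signs at the 2 times, with a median log2 difference, LEV minus untreated, of 0.31 at 7 d and −0.24 at 1 m over the 38 genes. That difference between times was not tested, since each value sets 1 library against 1.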

How the results depend on the processing

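The count of 21 genes called higher by side became 20 to 25 with a pseudocount of 0.25, median centring, TMM factors or edgeR, 10 of the 23 genes tested at a mean of at least 5 CPM, 9 with no expression limit, 2 with no state factor and 0 to 27 with 1 state left out. The count of 32 lower over time on the infarcted side became 19 of 23 at 5 CPM, 0 with no expression limit, where 0 of all genes were called, and 18 to 34 with 1 library left out. The count of 3 on the non-infarcted side became 0 with no expression limit or TMM factors, 1 with median centring, edgeR or without members that share tags, and 0 to 5 with 1 library left out. The count of 16 for the side difference over time became 1 with no expression limit, 9 with median centring or TMM factors, 7 in edgeR and 3 to 17 with 1 state left out, and the 0 for LEV on it became 0 to 2 higher and 0 to 2 lower with 1 state left out. Fewer or more genes tested and fewer libraries are part of these settings, and other causes were not tested. Calls by side over all genes were 1079 higher and 128 lower, 918 and 591 with median centring, which moved the median gene to −0.07, and 946 and 290 with TMM factors. Signs turned for values that were not called: Cmpk2 by side (−0.054 with median centring, −0.00692 with TMM factors, −0.00149 in edgeR, −0.065 to 0.086 with a state left out), Igtp by side (−0.096 to 0.037 with a state left out) and Stat2 against naive (−0.012 with median centring). With a library or state left out, Irf1 over time ran from −0.72 to 0.11, and for the side difference over time Ifit2 ran from −0.13 to 0.15, Stat2 from −0.17 to 0.20, Cmpk2 from −0.51 to 0.096 and Gbp2 from −0.77 to 0.053. GAANNGAAA, a core with another spacing, was found in 12 of 30 windows (40%) against 8.64% of other genes. The side test pairs the libraries of a state, and the count of 2 with no state factor is that without pairing. No paired analysis was possible by replicate number, because no group has a second library and the labels carry no replicate numbers. Depth limits the genes near 1 CPM, such as Ifi44, Trim30a, Oas1a and Igtp, and 1 library a group leaves no error for single comparisons.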
